A study of Homo sapiens and Mus musculus and synthetic construct with 31 samples.

Results

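The SOX family was followed through 10 of its genes in human and mouse embryonic stem cells (hESCs and mESCs). They are SOX1, SOX2 and SOX3 of the SOXB1 subgroup, SOX21 of SOXB2, SOX4, SOX11 and SOX12 of SOXC, SOX13 of SOXD, SOX9 of SOXE and SOX15 of SOXG. The genes were taken by symbol from the tables of counts per gene, which hold 63677 human and 37991 mouse genes. All 10 had a row in the human tables and 9 had a row in the mouse tables, where no row matched the symbol of SOX1, so that 9 members could be compared between the species. RNA-seq was made from 18 libraries in 4 groups. The hESCs were HUES64, an established human line kept feeder-free in mTeSR1. They gave 3 untransfected libraries, 1 from each of 3 passages. After transient transfection of the reporter plasmid pool with Lipofectamine Stem they gave 9 libraries, 3 from each of 3 passages. The mESCs came from blastocysts, were kept feeder-free in 2i medium, and gave 3 untransfected libraries and 3 transfected with Lipofectamine 2000, 1 from each passage. No genotype, strain or age beyond this is used here. The hESCs received 25 µg of plasmid per 2500000 cells and the mESCs 40 µg per 10000000 cells. Each species is represented by 1 line, and the effects of species, line, culture medium, transfection reagent and plasmid dose per cell on any difference between hESCs and mESCs cannot be told apart.

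SOX proteins are transcription factors that bind the minor groove of DNA through an HMG box and usually act with a partner bound beside them. In embryonic stem cells SOX2 binds together with OCT4 (the product of POU5F1) at many pluripotency genes. The other SOXB1 factors are best known from neural progenitors, SOXC factors from differentiating neurons, and SOX9 from cartilage, the testis and the neural crest.

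The libraries of transfected hESCs held 15447549 to 20971095 counted fragments each (median 17129382), those of untransfected hESCs 18684612 to 22018956, those of transfected mESCs 17238661 to 19669495 and those of untransfected mESCs 15107041 to 19050791. Counts of the 3 transfections within a passage of hESCs were added up, so that each group had 3 values, 1 per passage. Levels are given in cpm, which scale a gene's count to the total of its library. Nothing in the labels says that passages are separate derivations, so p-values measure the spread between these passages. Transfected hESC passage 3 stood apart from the other passages. With it, 168 of 18060 human genes were called after transfection, and without it 9062 of 17160 were called, so calls between transfected and untransfected hESCs are given with and without it. Comparisons of transfected hESCs with mESCs include it. The defining markers of embryonic stem cells were present in both species, POU5F1 at 68.2 ± 3.5 cpm (SD, n = 3) in untransfected hESCs and 820 ± 27 cpm in untransfected mESCs. Of markers of other cell types, the genes under 1 cpm in every passage were, in hESCs, 10 of 12 of neural ectoderm, 5 of 8 of neural crest, 5 of 8 of endoderm, 4 of 8 of mesoderm, 5 of 7 of trophoblast and 3 of 8 of fibroblasts. In mESCs they were 10 of 12, 4 of 8, 5 of 8, 6 of 8, 3 of 7 and 5 of 8, in the same order. The whole-cell RNA gives only an average, so fewer cells with a transcript and less of it per cell cannot be told apart.

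**Figure D1:**
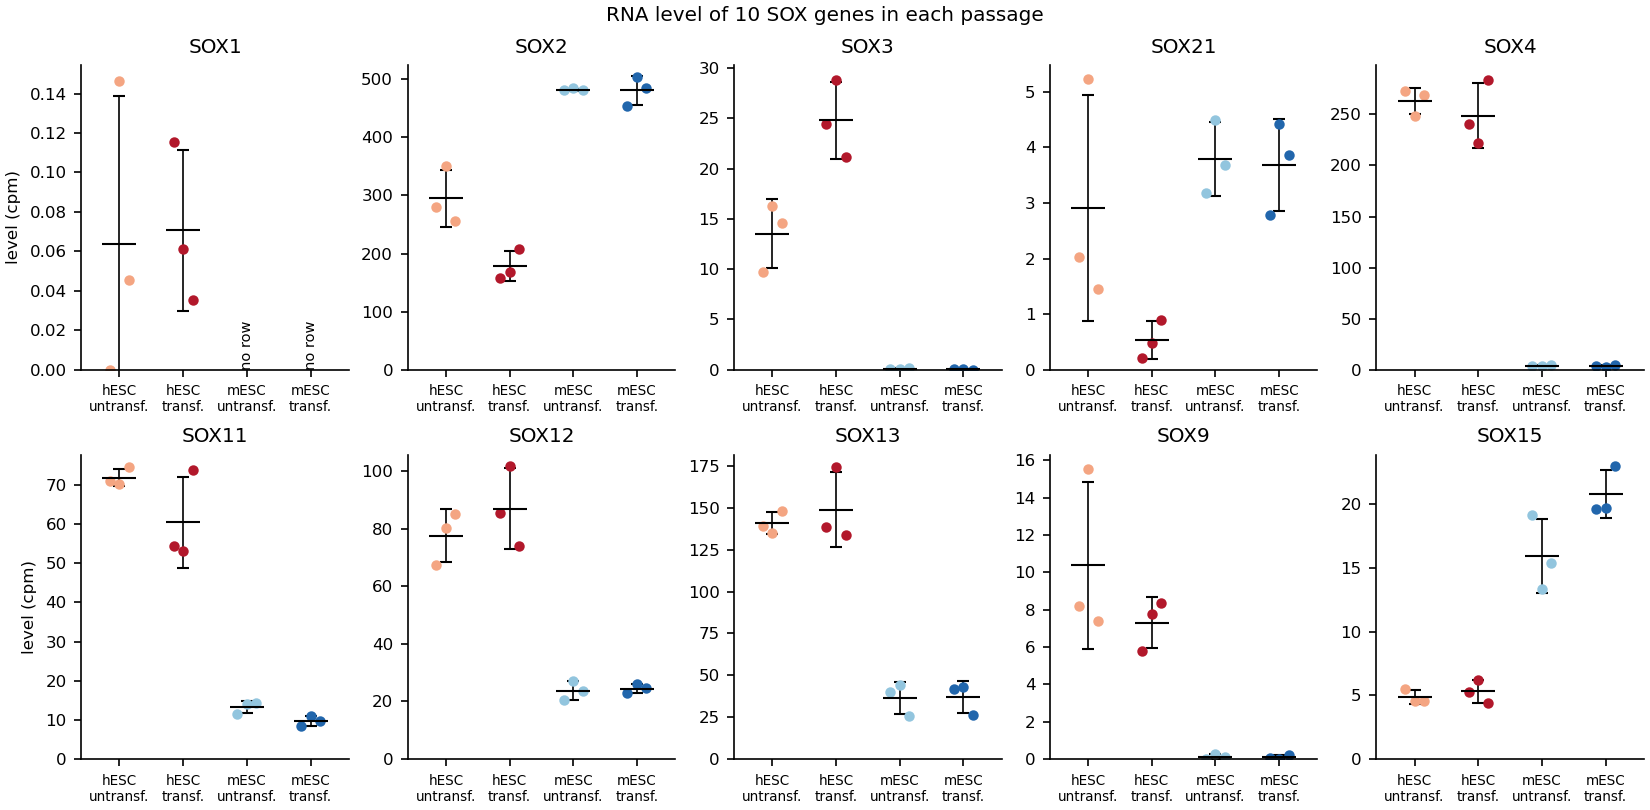
Levels of the 10 SOX genes in cpm, with a linear axis from 0 and its own scale for each gene; points are the 3 passages of each group and bars the mean ± SD. SOX3, SOX4, SOX11, SOX12, SOX13 and SOX9 lie higher in every hESC passage than in any mESC passage, SOX2 and SOX15 lie lower, and mouse SOX1 had no row. Such separation was not counted over all ortholog pairs, of which 55.9% of those tested were called between the species.

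SOX2 was the member with the highest level per length in all 4 groups. To compare genes, cpm were divided by the length of a gene's exons in kilobases (cpm per kb). In untransfected hESCs SOX2 stood at 118 cpm per kb, followed by SOX4 at 54, SOX13 at 19.0, SOX12 at 16.7, SOX11 at 8.25, SOX3 at 6.53, SOX15 at 3.16, SOX9 at 2.64, SOX21 at 1.16 and SOX1 at 0.0156. In this order the passages of SOX13 and SOX12 overlapped, as did those of SOX15 and SOX9 and those of SOX9 and SOX21. In untransfected mESCs SOX2 stood at 196 cpm per kb and SOX15 came next at 18.5, ahead of SOX13 at 8.50, SOX11 at 6.54, SOX12 at 5.68, SOX21 at 0.996, SOX4 at 0.831, SOX3 at 0.0535 and SOX9 at 0.0300. Here the passages of SOX13 and SOX11 overlapped, as did those of SOX11 and SOX12, of SOX21 and SOX4, and of SOX3 and SOX9. By whole exon length SOX4 thus held the second place among the members in hESCs and the seventh in mESCs. SOX15 moved from the seventh to the second. In mouse 54.6% of the exon bases of Sox4 and 18.8% of those of Sox21 are shared with other genes. The order of SOX21 and SOX4 in mESCs therefore depends on the length used.

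Between the species, SOX2 was higher in mESCs. The gene lies at chr3:181429714-181432221 in human (hg19, plus strand) and at chr3:34548927-34551383 in mouse (mm9, plus strand). Untransfected hESCs had 281, 350.3 and 255.5 cpm in passages 1 to 3, and transfected hESCs 158.5, 168.5 and 208 cpm. Untransfected mESCs had 481, 484 and 481 cpm, and transfected mESCs 454, 504 and 485 cpm. Every mESC passage lay above every hESC passage. The log2 fold change of mESCs over hESCs, with transfection as a term, was 1.12 (SE 0.15, edgeR's quasi-likelihood test with Benjamini-Hochberg adjustment, adjusted p = 6.23e-06). A gene was called between the species if the adjusted p was under 0.01 and the level differed by 1 or more on the log2 scale, in either direction. The SOX2 difference was 0.78 (SE 0.11) over untransfected and 1.51 (SE 0.15) over transfected libraries, so that over untransfected libraries it missed the fold threshold. It also missed it, at 0.76 (SE 0.12), when the exon lengths of the human and the mouse gene were used as an offset. The test of a difference in transfection response between the species, given below, did not call SOX2 by edgeR over all passages.

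SOX3 (chrX:139585152-139587225 in hg19 and chrX:58144545-58146605 in mm9, minus strand in both), known from the early central nervous system and the pituitary, was present in hESCs and near 0 in mESCs. Its level was 9.69, 16.3 and 14.6 cpm in untransfected hESCs, and 24.4, 28.9 and 21.2 cpm in transfected hESCs. In mESCs it was 0.0662, 0.107 and 0.158 cpm without transfection and 0.0580, 0.0566 and 0 cpm with it. These mouse levels rest on 6 and 2 counts in all. Over untransfected libraries the ratio of summed hESC to mESC levels was 120 (95% exact counting interval 55.1 to 329), and over transfected libraries 673 (186 to 5.56e+03). The fitted log2 fold change over all libraries was -7.84 (SE 0.34, edgeR adjusted p = 4.27e-11). SOX1, the other SOXB1 gene, was counted 4 times in untransfected and 11 times in transfected hESCs, a mean of 0.0640 ± 0.0750 and 0.0706 ± 0.0407 cpm (SD, n = 3).

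SOX21, a SOXB2 factor that acts as a repressor and opposes SOXB1 factors in neural progenitors, was low in every group. It is annotated at chr13:95361886-95364389 in hg19 and at chr14:118632454-118636252 in mm9, on the minus strand in both. Untransfected hESCs had 2.03, 5.22 and 1.45 cpm, and transfected hESCs 0.211, 0.489 and 0.888 cpm. Untransfected mESCs had 3.18, 4.50 and 3.67 cpm, and transfected mESCs 2.78, 4.41 and 3.86 cpm. The untransfected groups of the 2 species overlapped through hESC passage 2, and the transfected groups did not overlap. The log2 fold change of mESCs over hESCs was 1.57 (SE 0.50, edgeR adjusted p = 0.00924) over all libraries, 0.46 (SE 0.41, adjusted p = 0.316) over untransfected and 2.86 (SE 0.47, adjusted p = 7.68e-04) over transfected libraries. The call over all libraries was lost without hESC passage 1 (1.24) or 3 (1.51) and without mESC passage 2 (1.55) or 3 (1.70). With exon length as an offset it was 0.60 (SE 0.45, adjusted p = 0.229), and 18.8% of the mouse gene's exon bases are shared with Gm4675, an antisense gene with 52 counts over all libraries against 404 of SOX21.

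The 3 SOXC genes, which act in neuronal differentiation and in the survival of progenitors, were all higher in hESCs, SOX4 by the widest margin. SOX4 (chr6:21593972-21598847 in hg19, plus strand, and chr13:29040788-29045582 in mm9, minus strand) had 273, 249 and 269 cpm in untransfected and 240.5, 222 and 284 cpm in transfected hESCs. In mESCs it had 3.91, 3.48 and 4.57 cpm without and 3.54, 3.05 and 4.88 cpm with transfection. The groups lay far apart, with a log2 fold change of -5.98 (SE 0.14, edgeR adjusted p = 1.58e-13) that was -5.97 over untransfected and -5.94 over transfected libraries. In the mouse annotation 54.6% of the exon bases of Sox4 are shared with Gm17419, a gene on the opposite strand at 0 counts, and 405 of those bases with a second entry named Sox4, also at 0. The counting used no strand and no option to count fragments that overlap 2 genes. With the exon bases that no other gene shares as an offset, the log2 fold change was -5.18 (SE 0.13), and with whole exon lengths -6.35 (SE 0.14).

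For SOX11 (chr2:5832799-5841516 in hg19, plus strand, and chr12:28025562-28027574 in mm9, minus strand) the difference depended on the gene models. The gene had 70.9, 70.3 and 74.5 cpm in untransfected and 54.4, 53.2 and 73.9 cpm in transfected hESCs, against 11.4, 13.9 and 14.2 cpm in untransfected and 8.47, 11.1 and 9.71 cpm in transfected mESCs. No hESC passage overlapped a mESC passage, and the log2 fold change was -2.49 (SE 0.12, edgeR adjusted p = 1.57e-10). The human exons span 8718 bases and the mouse exons 2013. With exon length as an offset the log2 fold change was -0.76 (SE 0.12, adjusted p = 1.98e-05), in the same direction but short of the fold threshold. Per length, SOX11 had 8.06 to 8.54 cpm per kb in untransfected hESCs and 5.66 to 7.04 in untransfected mESCs.

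SOX12 had 67.3, 80.2 and 85.2 cpm in untransfected and 85.3, 101.7 and 73.9 cpm in transfected hESCs. In mESCs it had 20.5, 27.0 and 23.5 cpm without and 22.8, 26.0 and 24.7 cpm with transfection. All hESC passages were above all mESC passages, with a log2 fold change of -1.72 (SE 0.11, edgeR adjusted p = 2.55e-09) and -1.96 with exon length as an offset.

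Of the remaining members, SOX13 and SOX9 were higher in hESCs and SOX15 in mESCs. SOX13, a SOXD factor known from T cell development, had 133.7 to 174.4 cpm over the 6 hESC passages and 25.9 to 44.0 cpm over the 6 mESC passages, with a log2 fold change of -1.92 (SE 0.15, edgeR adjusted p = 3.10e-08). Its exons span 7412 bases in human and 4312 in mouse. Per length the gap was smaller, at 19.0 cpm per kb in untransfected hESCs and 8.50 in untransfected mESCs. SOX9, a regulator of cartilage formation, had 8.19, 15.5 and 7.40 cpm in untransfected and 5.78, 7.79 and 8.34 cpm in transfected hESCs, and at most 0.268 cpm in any mESC passage. Its mouse levels rest on 7 counts in untransfected and 5 in transfected cells, giving ratios of hESCs to mESCs of 78.2 (95% exact counting interval 37.7 to 195) and 80.0 (34.2 to 247). SOX15, the only SOXG gene, known from muscle precursors and expressed in mouse ESCs, had 5.46, 4.59 and 4.54 cpm in untransfected and 5.28, 6.20 and 4.42 cpm in transfected hESCs. In mESCs it had 19.1, 13.4 and 15.4 cpm without and 19.7, 19.7 and 23.0 cpm with transfection. Every mESC passage exceeded every hESC passage of SOX15, with a log2 fold change of 1.90 (SE 0.13, edgeR adjusted p = 5.83e-09). SOX15 shares 15 exon bases in human and 31 in mouse with the gene MPDU1 on the opposite strand, which had 17704 and 14721 counts against 1124 and 1972 of SOX15.

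**Figure D2:**
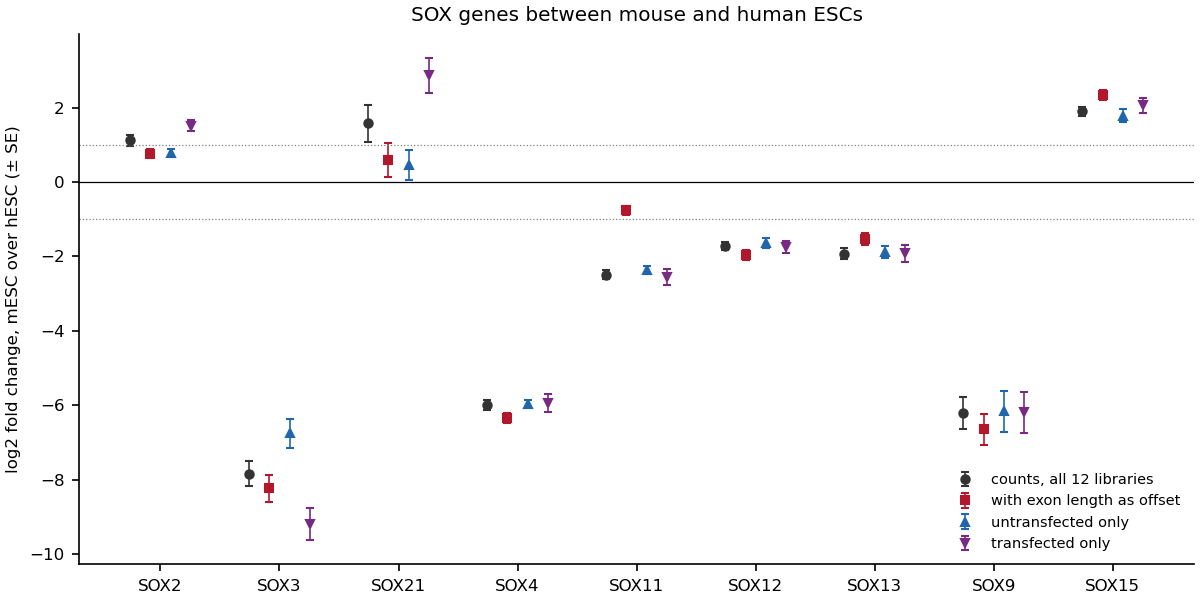
Log2 fold change of mESCs over hESCs for the 9 paired members on the vertical axis, with bars of 1 SE and dotted lines at the fold threshold of 1 in either direction; symbols are 4 fits. SOX2, SOX21 and SOX11 move inside the threshold with exon length as an offset, and SOX2 and SOX21 also with untransfected libraries only, whereas SOX4 stays near -6.

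Of the 9 members tested between the species, 9 were called, 3 higher in mESCs and 6 lower, where 55.9% of the 11520 ortholog pairs tested were called, 26.4% higher and 29.4% lower in mESCs. A pair was tested if it reached 1 cpm in at least 3 of 12 libraries, a filter that SOX3 and SOX9 passed only through hESCs, so the count of 9 says little by itself. With exon length as an offset 6 members were called, against 60.1% of all pairs, and with unshared exon length 6, against 59.4%. Over untransfected libraries 7 were called, against 55.2%, and over transfected libraries 9, against 52.8%. The median log2 fold change of the 9 was -1.92 and that of all pairs -0.03. Of the other SOX genes, SOX6 (log2 fold change 1.79, SE 0.47, edgeR adjusted p = 0.00291) was called higher in mESCs, SOX8 (-4.95, SE 0.31) and SOX10 (-4.70, SE 0.33) were called lower, and SOX7 at -0.05 (SE 0.29) was not called. SOX5, SOX14, SOX17, SOX18 and SOX30 did not reach the filter. SOX6 belongs with SOX13 to SOXD, and SOX8 and SOX10 with SOX9 to SOXE. SOX8, SOX9 and SOX10 passed the filter only through hESCs, so that the shared sign within SOXE follows from the filter. SOX8 rests on 8 counts in untransfected and 13 in transfected mESCs, and SOX10 on 4 and 2. Within SOXD the signs were opposite, but SOX6 passed the filter only through mESCs, its highest hESC passage having 0.732 cpm.

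Genes that SOX2 and OCT4 are known to control together were mostly higher in mESCs. Of 8 genes of this circuit, all tested, 5 were called higher and 1 lower, where 26.4% of all pairs were called higher and 29.4% lower. POU5F1 differed by 3.56 on the log2 scale (SE 0.10) from the levels given above, and NANOG, at 47.4 ± 5.2 cpm in untransfected hESCs and 854 ± 78 cpm in untransfected mESCs (SD, n = 3), by 4.20 (SE 0.10). FGF4, a growth factor with a SOX2 and OCT4 enhancer, was at 0.0965 ± 0.1298 cpm in untransfected hESCs and 421 ± 54 cpm in untransfected mESCs. Its fitted log2 fold change was 12.24 (SE 0.27), UTF1 had 5.76 (SE 0.18) and FBXO15 7.90 (SE 0.14). LEFTY1, an inhibitor of NODAL signalling, was called lower in mESCs at -1.20 (SE 0.28, edgeR adjusted p = 0.00129). SALL4 at 0.42 (SE 0.13) and ZFP42 at -0.03 (SE 0.08) were not called. In the same fit SOX2 itself had 1.12, which fell under the fold threshold over untransfected libraries and with exon length as an offset. A link between SOX2 and the levels of these genes was not tested.

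The lists for the states in which ESCs can be held moved with the species. Of 9 naive ESC genes 8 were called higher in mESCs, those of highest level being TFCP2L1 (log2 fold change 7.43, SE 0.12), ESRRB (9.63, SE 0.34) and KLF4 (7.34, SE 0.20). Of 8 primed ESC genes tested 6 were called lower, with DNMT3B at -5.01 (SE 0.17), SALL2 at -5.98 (SE 0.13) and SFRP2 at -8.61 (SE 0.26). By sign alone SOX3, SOX4, SOX9, SOX11, SOX12 and SOX13 lay on the side of the primed list. SOX2, SOX15 and SOX21 lay on that of the naive list. Of all pairs 29.4% were called lower and 26.4% higher in mESCs, and SOX3 and SOX9 passed the filter only through hESCs. The description carries no test. Of the neural ectoderm list, 2 of 12 genes were tested, NES being called lower in mESCs (-3.61, SE 0.20) and LHX2 higher (3.69, SE 0.32). Of 8 neural crest genes 3 were called higher in mESCs and 1 lower, NGFR at 2.33 (SE 0.28) and ETS1 at -6.67 (SE 0.28) being the most abundant.

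Marker lists of other cell types also differed between the species, and their part in the SOX differences was not tested. Beside the counts below, 26.4% of all pairs were called higher and 29.4% lower in mESCs. The summed level of the 8 fibroblast genes was 597 to 665 cpm in untransfected hESCs and 3.71 to 4.12 cpm in untransfected mESCs, and 5 of 5 tested were called lower in mESCs. THY1 had 422 cpm in untransfected hESCs (log2 fold change -9.19, SE 0.26), COL1A1 109 (-6.36, SE 0.19), COL1A2 73.6 (-9.76, SE 0.35) and PDGFRB 25.9 (-4.51, SE 0.18). Of the rest of the list, POSTN had 1.61 cpm there, and COL3A1, DCN and LUM were at most 0.119 cpm on average in any group. The 7 trophoblast genes summed to 10.9 to 15.8 cpm in untransfected hESCs and 190 to 237.5 cpm in untransfected mESCs, and 4 of 4 tested were called higher in mESCs. TFAP2C had 7.05 and 158 cpm (log2 fold change 4.47, SE 0.15), GATA2 0.184 and 32.1 (7.37, SE 0.38) and KRT7 5.01 and 24.4 (2.25, SE 0.17), while CDX2, ELF5 and GCM1 did not reach the filter. The 8 mesoderm genes summed to 147 to 163 cpm in untransfected hESCs, nearly all from KDR, and 10.5 to 15.9 cpm in untransfected mESCs, and 4 of 5 tested were called lower. The 8 endoderm genes summed to 4.04 to 8.46 and 16.4 to 19.0 cpm, with 2 called higher and 2 lower. 

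Plasmid transfection of hESCs was next compared with no transfection. No member was called at an adjusted p under 0.05 by edgeR's quasi-likelihood test, which called 0.930% of all 18060 genes. An unadjusted p under 0.05 was reached by 3 of 9 members tested and by 4363 of the 18060 genes. DESeq2 called the same 3 members, SOX2, SOX3 and SOX21, and 5.50% of all genes. With no filter on low counts edgeR called these 3 as well, with 7.63% of genes called, and with the passage as a block it called none of the members and 0.343% of genes. The passages of these 3 members did not overlap between the groups. This rests on the same values as the p-values and was not counted over all genes. SOX2 had 158.5 to 208 cpm in transfected against 255.5 to 350.3 cpm in untransfected passages, and over the 9 single transfected libraries 149 to 215.9 cpm with a median of 170.5. Its log2 fold change was -0.71 (SE 0.18, edgeR adjusted p = 0.106). SOX3 had 21.2 to 28.9 cpm in transfected against 9.69 to 16.3 cpm in untransfected passages, with a log2 fold change of 0.88 (SE 0.24, edgeR adjusted p = 0.122). The 2 SOXB1 genes therefore had opposite signs in the same libraries. SOX21 had a log2 fold change of -2.43 (SE 0.60, edgeR adjusted p = 0.103), from 177 counts in untransfected and 85 in the more deeply sequenced transfected passages. Without untransfected passage 2, in which SOX21 and SOX2 were highest, the values were -1.64 for SOX21 and -0.52 for SOX2.

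The edgeR calls also depended on transfected passage 3. In it SOX2 had 202, 208 and 215.9 cpm over its 3 transfections, against 149 to 182.6 cpm over the 6 transfections of passages 1 and 2. SOX11 had 75.1, 72.0 and 74.5 cpm in passage 3, against 50.3 to 58.6 cpm in the other 6 transfections and 70.3 to 74.5 cpm in the untransfected passages. SOX21 had 0.858, 1.16 and 0.635 cpm in passage 3 and 0.0596 to 0.729 cpm in the others. SOX3 had 21.0, 19.96 and 22.7 cpm in passage 3 and 22.8 to 30.1 cpm in the others. For all 4 genes the mean of transfected passage 3 thus lay closer to the untransfected mean than those of passages 1 and 2 did. The pattern did not hold for SOX13 and SOX15, and the 4 genes are those called without that passage, so it is no separate evidence. Without transfected passage 3, 4 of 9 members were called, with 52.8% of all genes called, so that the members' share was near that of all genes. These were SOX2 at -0.84 (SE 0.15, edgeR adjusted p = 0.00496), SOX3 at 0.99 (SE 0.22, adjusted p = 0.00973), SOX21 at -3.04 (SE 0.66, adjusted p = 0.00848) and SOX11 at -0.40 (SE 0.10, adjusted p = 0.0159). Leaving out any other library of this comparison left 2 to 201 genes and 0 members called.

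**Figure D3:**
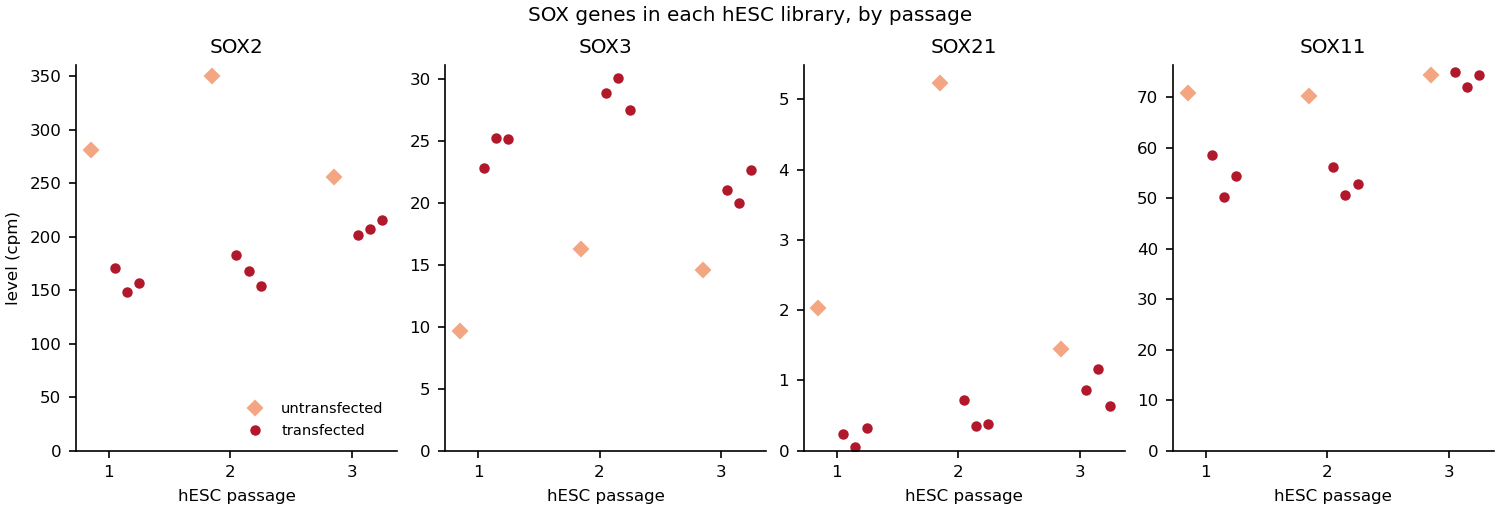
Levels of SOX2, SOX3, SOX21 and SOX11 in cpm, from 0, by hESC passage; diamonds are the untransfected library of a passage and circles its 3 transfected libraries. For SOX2 and SOX11 the 3 transfected libraries of passage 3 lie above those of passages 1 and 2, and SOX11 there has the level of untransfected cells.

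For the remaining members the passages of transfected and untransfected hESCs overlapped. SOX4 had a log2 fold change of -0.06 (SE 0.14), SOX11 of -0.23 (SE 0.17), SOX12 of 0.18 (SE 0.18), SOX13 of 0.10 (SE 0.15), SOX15 of 0.14 (SE 0.20) and SOX9 of -0.50 (SE 0.31), and SOX1 did not reach the filter. Of the other SOX genes edgeR called 0 of 7 tested and DESeq2 called 2. Where 4363 of all 18060 genes had an unadjusted p under 0.05, 3 of the 7 did. These were SOX14 at 3.04 (SE 0.67, edgeR adjusted p = 0.0804), which rests on 3 counts in untransfected and 67 in transfected cells, SOX8 at 0.95 (SE 0.28, adjusted p = 0.137) and SOX10 at 0.79 (SE 0.22, adjusted p = 0.125). Of the 7 tested genes of the SOX2 and OCT4 circuit edgeR and DESeq2 called 0, and 1 had an unadjusted p under 0.05, POU5F1 being at 0.30 (SE 0.18) and NANOG at 0.03 (SE 0.15). POU5F1 had 89.8, 94.2 and 64.4 cpm in transfected passages 1 to 3 and 64.3 to 71.1 cpm in untransfected cells, so that transfected passage 3 alone lay within the untransfected range. Without transfected passage 3, where 52.8% of all genes were called, 4 of the 7 circuit genes were called. These were POU5F1 at 0.45 (SE 0.10, edgeR adjusted p = 0.0095), LEFTY1 and ZFP42 higher and SALL4 lower. Of 6 other SOX genes tested SOX8 at 1.08 (SE 0.26) and SOX10 at 0.87 (SE 0.21) were called higher and SOX5 at -1.79 (SE 0.44) and SOX6 at -2.26 (SE 0.47) lower. Of the primed list OTX2, a factor of the anterior neural plate, fell from 82.7 to 21.5 cpm (log2 fold change -1.93, SE 0.28, edgeR adjusted p = 0.0281), the only one of 8 tested that edgeR called. Of the neural crest list NGFR rose from 5.25 to 20.9 cpm (2.02, SE 0.23, adjusted p = 0.0126). Without transfected passage 3, OTX2 was at -2.25 (SE 0.20) and NGFR at 2.16 (SE 0.18), both called. The summed neural ectoderm list was 364 to 461 cpm in untransfected and 585 to 636 cpm in transfected hESCs, nearly all from NES, with 0 of 4 tested called by edgeR, 2 by DESeq2 and 3 at an unadjusted p under 0.05, PAX6 standing at 1.16 and 0.36 cpm. The endoderm list summed to 4.04 to 8.46 and 15.2 to 27.0 cpm, most of it from CER1, the fibroblast list to 597 to 665 and 835 to 1224 cpm, the mesoderm list to 147 to 163 and 108 to 135 cpm and the trophoblast list to 10.9 to 15.8 and 14.1 to 15.4 cpm, in that order. edgeR called 0 genes of these 4 lists, DESeq2 called 2, 2, 1 and 0, and 2, 3, 1 and 0 had an unadjusted p under 0.05. Without transfected passage 3 edgeR called 2 of 3, 4 of 5, 2 of 4 and 1 of 2 of these lists, against 52.8% of all genes. It also called 2 of 2 of the neural ectoderm list, NES at 0.64 (SE 0.11) and PAX6 at -2.02 (SE 0.37). The part of these genes in the SOX values was not tested.

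In mESCs, SOX2 kept its level after transfection within the spread of the passages, with a log2 fold change of 0.00 (SE 0.07, edgeR adjusted p = 0.991). No member of 7 tested was called by edgeR, where 1.09% of 14436 genes were called, nor by DESeq2, which called 6.91%. Where 2844 of the 14436 genes had an unadjusted p under 0.05, 2 members did. SOX11 had 8.47, 11.1 and 9.71 cpm in transfected and 11.4, 13.9 and 14.2 cpm in untransfected passages, with a log2 fold change of -0.43 (SE 0.16, edgeR adjusted p = 0.184). SOX15 had 19.7, 19.7 and 23.0 against 19.1, 13.4 and 15.4 cpm, with 0.39 (SE 0.14, edgeR adjusted p = 0.196). Neither pair of groups overlapped, which was not counted over all genes. The passages of mESCs share deviations between their transfected and untransfected libraries, and with the passage as a block both genes were called, SOX11 at -0.43 (SE 0.10, edgeR adjusted p = 0.0162) and SOX15 at 0.40 (SE 0.11, adjusted p = 0.0361), with 3316 genes, 23.0% of all, called. SOX21 at -0.04 (SE 0.24), SOX4 at -0.06 (SE 0.22), SOX12 at 0.04 (SE 0.13) and SOX13 at 0.02 (SE 0.24) were called in neither fit, and SOX3 and SOX9 did not reach the filter. Of the circuit and each marker list edgeR called 0 genes in mESCs without the block, while 0 to 2 had an unadjusted p under 0.05 and DESeq2 called 0 or 1. With the block it called UTF1 of the circuit at 0.56 (SE 0.11, adjusted p = 0.00681), KLF2, ESRRB and TBX3 of the 9 naive genes, and CXCR4, EOMES and GATA3 of the other lists, all higher after transfection.

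**Figure D4:**
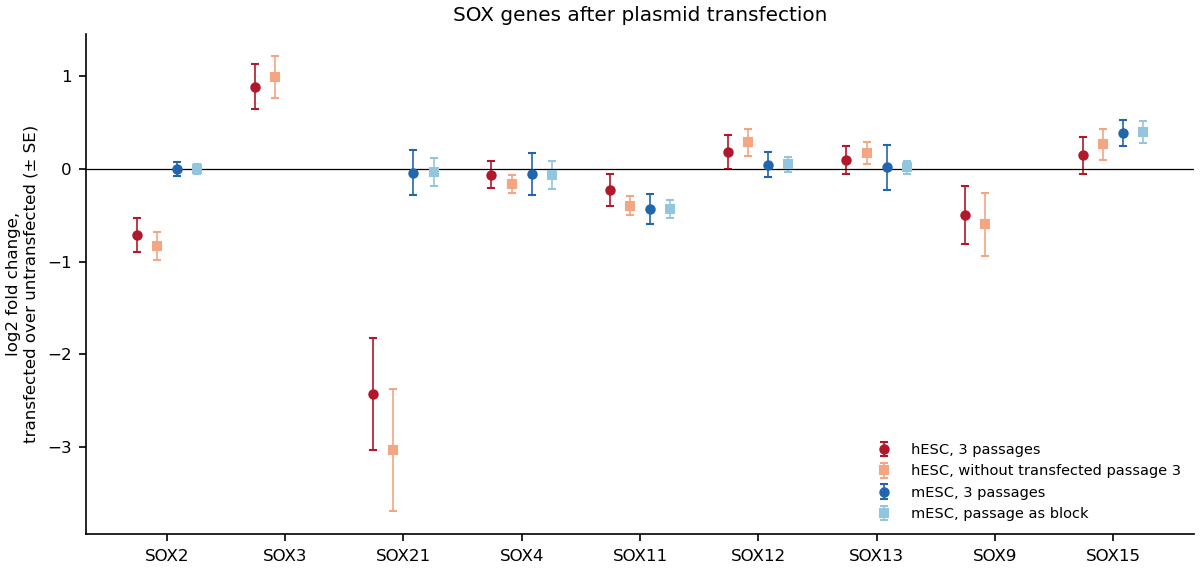
Log2 fold change of transfected over untransfected cells for 9 members, with bars of 1 SE; hESCs with and without transfected passage 3, and mESCs with and without the passage as a block. In hESCs SOX2 and SOX21 lie below 0 and SOX3 above it, and in mESCs SOX2 is at 0.00 and SOX21 at -0.04; SOX3 and SOX9 were not tested in mESCs.

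Whether the response to transfection differed between the species was tested as an interaction over the ortholog pairs. No member of 9 was called at an adjusted p under 0.05 by edgeR, where 0.590% of 11520 pairs were called. Where 1270 of the 11520 pairs had an unadjusted p under 0.05, 3 members did. DESeq2 called 1 member with 2.00% of all pairs, and the block by passage within species called none with 0.399%. The response of SOX2 in mESCs exceeded that in hESCs by 0.78 on the log2 scale (SE 0.20, edgeR adjusted p = 0.118), and that of SOX21 by 2.45 (SE 0.70, adjusted p = 0.196). DESeq2 gave SOX21 2.40 (SE 0.68, adjusted p = 0.0252). For SOX3 the difference was -2.33 (SE 0.95, edgeR adjusted p = 0.404), with its 8 mouse counts. Without hESC passage 3, 2146 of 11408 pairs (18.8%) and 2 members were called, SOX2 at 1.00 (SE 0.16, edgeR adjusted p = 0.00638) and SOX21 at 3.39 (SE 0.62, adjusted p = 0.00888). Leaving out another passage left 8 to 46 pairs and 0 members called.

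The genes most like SOX2, SOX3 and SOX4 were found by the root mean square distance of log2 cpm, centred on each gene's mean, over 12 libraries and among 10056 pairs with at least 5 cpm in a group. Nearest to SOX2 were SNX5, a sorting nexin (distance 0.10), F2RL1, a protease-activated receptor (0.13), and MYO10, an unconventional myosin (0.15). SNX5 had 322 cpm in untransfected and 202 in transfected hESCs, and 502 and 552 in mESCs, so like SOX2 it was lowest in transfected hESCs. SOX3 was most like SLC15A3 (0.35), VPS25 (0.35) and HECW1 (0.37). SOX4 was most like CHODL (0.20), TMEM182 (0.21) and XYLT1 (0.21), all higher in hESCs. CHODL and TMEM182 were at 0 cpm in mESCs and about 5 in hESCs, so their distance is set by the prior count of 2 added before taking logs. The distances of SOX3 and SOX4 are set mainly by the gap between the species, which many genes share.

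The reporter assay held sequences at 1 member gene. A massively parallel reporter assay (MPRA) places each designed sequence of 144 bases in front of a barcoded reporter gene and compares barcode reads in RNA with those in the plasmid DNA. By position, 6 sequences lay within 1000 bases of the start of a member or in its exons, all of them at SOX21, and 4 were measured. The human coding tile at chr13:95363960-95364103 (hg19, minus strand) and the mouse coding tile at chr14:118634514-118634657 (mm9, minus strand) lie wholly in the coding sequence of the single exon of SOX21, on its strand. They are shown because they are counterparts in human and mouse and differ at 6 of 144 bases, which are in capitals, an identity of 95.8%.
human coding tile: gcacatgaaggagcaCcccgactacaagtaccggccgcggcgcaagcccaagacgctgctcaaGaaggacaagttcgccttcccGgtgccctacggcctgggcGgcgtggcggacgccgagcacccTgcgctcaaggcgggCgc
mouse coding tile: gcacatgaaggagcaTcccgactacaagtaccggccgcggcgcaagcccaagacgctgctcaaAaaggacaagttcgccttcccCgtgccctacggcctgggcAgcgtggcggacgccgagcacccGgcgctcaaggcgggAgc

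The other 2 measured sequences overlap each other and cross the annotated start of mouse Sox21 on the opposite strand, the mouse upstream tile at chr14:118636246-118636389 (mm9, plus strand) with 7 bases in the exon and the mouse start tile at chr14:118636132-118636275 with most of its bases there. Both are named here by their place relative to Sox21. In the paper's design they belong to a start on the plus strand, and the order is reversed. The upstream tile is tile 1, which overlaps that start, and the start tile is tile 2, which lies upstream of it. The 2 coding tiles are also tile 2 of their own starts, and the tile 1 sequences of those starts were not measured. Of the upstream tile the 137 bases before the start are shown, chr14:118636253-118636389, since this was the most active of the 4. None of the 4 holds CCATTGT or AACAAAG, strings like those that SOX factors bind, on either strand.
mouse upstream tile: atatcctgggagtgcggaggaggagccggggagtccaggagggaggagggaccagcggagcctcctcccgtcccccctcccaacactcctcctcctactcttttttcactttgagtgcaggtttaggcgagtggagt

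Activity was the ratio of RNA to DNA reads with the median random sequence set to 1. The 2 coding tiles were near the random sequences in both cell types. In hESCs the human coding tile had 1.30, 1.05 and 0.982 in passages 1 to 3 and in mESCs 1.22, 1.49 and 1.15, from 10 barcodes with 3454 DNA reads, above 61.1% and 75.5% of the 1604 random sequences. For the mouse coding tile the values were 1.31, 1.26 and 1.46 in hESCs and 1.40, 1.25 and 1.16 in mESCs, from 11 barcodes with 8600 DNA reads, above 78.6% and 74.4%. The mouse upstream tile was active in both, at 3.48, 3.64 and 3.49 in hESCs and 2.68, 2.73 and 3.87 in mESCs, above 98.5% and 99.1% of random sequences, with 7472 DNA reads. The mouse start tile had 1.05, 1.64 and 1.23 in hESCs and 1.19, 0.917 and 1.42 in mESCs.

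None of the 4 was called between mESCs and hESCs by edgeR's quasi-likelihood test at an adjusted p under 0.05, where 21.9% of 13469 sequences were called, and none had an unadjusted p under 0.05. The log2 fold changes of mESCs over hESCs were 0.32 (SE 0.23) for the human coding tile, 0.03 (SE 0.14) for the mouse coding tile, -0.09 (SE 0.13) for the mouse upstream tile and -0.05 (SE 0.29) for the mouse start tile. For the SOX21 gene the log2 fold change was 2.86 in transfected cells, the state in which the reporter was read, 1.57 over all libraries and 0.60 with exon length as an offset. The plasmid DNA was 1 library with 98438176 reads on indexed barcodes, and its own error is not in these standard errors.

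**Figure D5:**
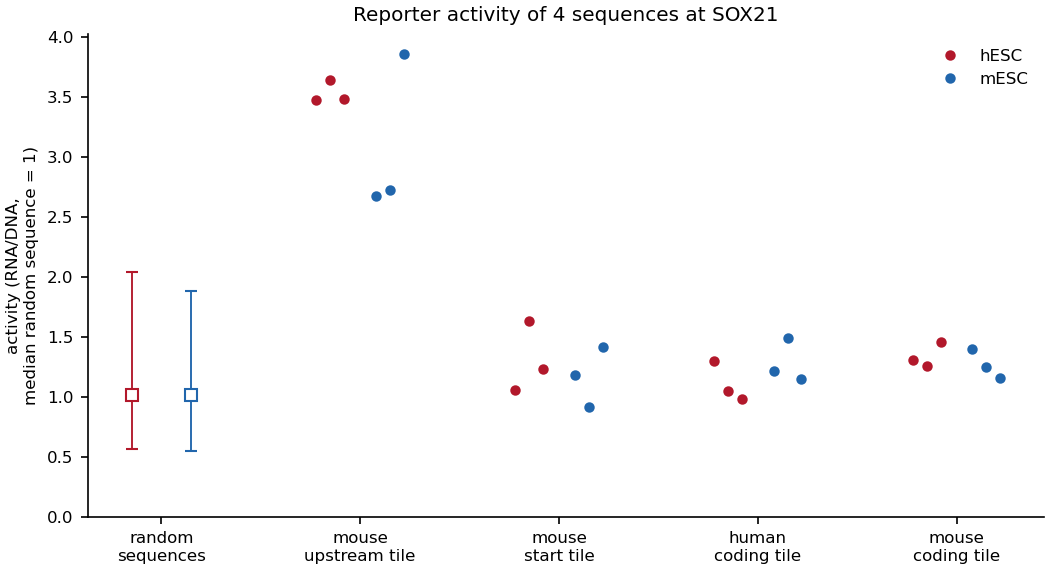
Reporter activity (RNA to DNA ratio, median random sequence set to 1, linear axis from 0) of the 4 measured SOX21 sequences; points are the 3 passages of hESCs and of mESCs. Squares are the median of the 1604 random sequences with bars from their 5th to 95th percentile, 0.563 to 2.05 in hESCs and 0.551 to 1.88 in mESCs; the mouse upstream tile alone lies above that range.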

How the data were processed

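For RNA-seq, from a non-stranded polyA kit, the authors aligned reads with HISAT2, and the values they deposited are raw counts per gene, made by featureCounts 2.0.0 over exons without strand. The paper gives mm10 for mouse, whereas the file headers name mm9. For the MPRA the authors deposited raw counts per barcode, without molecular identifiers, and an index of sequences on hg19 and mm9. The HISAT2 version was not given in the sources used here. Positions and exon lengths are those of the count files.

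Symbols were found for 87.4% of human and 97.9% of mouse genes. The 14558 ortholog pairs came from the study's list of transcription factors (661) or equal symbols (13897). edgeR 4.0.16 (R 4.3.3) gave quasi-likelihood tests with TMM scaling, across species over pairs that reached 1 cpm in 3 or more libraries, within a species over genes kept by filterByExpr. For the MPRA, barcodes with fewer than 10 DNA counts and sequences with fewer than 50% of their barcodes were left out, and log DNA counts were an offset. SE is the absolute log2 fold change over the square root of F. Alternatives used DESeq2 1.42.0, limma 3.58.1, other scalings, filters, lengths, blocks and left-out libraries. Comparisons between groups were also run on simulated counts of independent libraries with the same dispersion for every gene. These held no outlying passage and no pairing of passages. The interaction and the length offsets were not simulated. Counting intervals cover counting error only.

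Deviations from the group means correlated between same-numbered mESC libraries at 0.477, 0.478 and 0.555, so the numbers were taken to pair them. Members and gene lists were chosen with earlier results of these data known. Named were all members, called genes of the other SOX and circuit lists, up to 3 genes of highest level of each other list, the nearest genes to SOX2, SOX3 and SOX4, and genes whose exons overlap a member's; others named with values (PAX6, COL3A1, DCN, LUM, CER1, OTX2, PDGFRB and other called genes) were chosen after their values were seen.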

Additional observations from a re-analysis of the deposited data

How the results depend on the processing

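Of the 438 values of members and their reporter sequences under alternatives, 384 kept their direction and their side of the threshold, 12 lost a call, 15 gained one and 27 changed sign. The 27 sign changes were in results called in no setting. Between the species 8 to 9 members were called when a passage was left out, and 6 with exon length or unshared exon length (chosen after seeing the data) as an offset, 7 over untransfected libraries and 8 with pairs by equal symbol alone, in which SOX4 has no pair. After transfection in hESCs, where 0 were called, DESeq2 and the fit with no filter called 3 each, and leaving out a library gave 0 to 4. For the interaction DESeq2 called 1, and leaving out a passage gave 0 to 2. In mESCs, the replicate block called 2, and leaving out a library gave 0 to 0. In the reporter assay 0 sequences were called throughout. Why the calls move was not tested.

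The count of all genes called after transfection moved from 168 in hESCs to 994 with DESeq2, 2673 with no filter and 62 with the replicate block, and from 158 in mESCs to 997 with DESeq2, 904 with no filter, 55 with library size alone and 3316 with the replicate block. Leaving out a library gave 2 to 9062 in hESCs and 0 to 166 in mESCs. For the interaction 68 pairs became 230 with DESeq2 and 46 with the replicate block, and 8 to 2146 when a passage was left out. In the reporter assay 2095 to 3333 sequences were called when a passage was left out, against 2956. In hESCs the same-numbered libraries correlated at 0.148, 0.0379 and -0.0515, so that they share only a number, and the replicate block called 0 members there, in the interaction and in the reporter assay.

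Sign changes by setting were SOX4 at -0.01 and SOX9 at -0.06 with DESeq2 in the interaction, SOX4 at 0.01 with no filter in hESCs, and the mouse coding tile at -0.03 when scaled to the random sequences. Leaving out a library gave, in the interaction, SOX4 -0.14 to 0.17, SOX11 -0.38 to 0.01, SOX12 -0.24 to 0.04 and SOX9 -1.64 to 1.72. In hESCs it gave SOX4 -0.17 to 0.02 and SOX13 -0.02 to 0.17. In mESCs it gave SOX21 -0.20 to 0.13, SOX4 -0.26 to 0.07, SOX12 -0.04 to 0.17 and SOX13 -0.17 to 0.22. In the reporter assay it gave the mouse upstream tile -0.24 to 0.00, the mouse start tile -0.17 to 0.14 and the mouse coding tile -0.04 to 0.13. Depth limits SOX1, SOX14 and mouse SOX3, SOX8, SOX9 and SOX10, which rest on a few counts.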

Other observations

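Just outside the 1000 bases around the start of human SOX21, chosen after its values were seen, lay 2 measured sequences on the opposite strand, with centres at -1448.5 and -1334.5 bases from the start. The first shares runs of bases with the mouse upstream tile, and the other with the mouse start tile. The annotated exon of SOX21 spans 2504 bases in human and 3799 in mouse. The first had activities of 2.23, 2.46 and 2.52 in hESCs and 1.44, 1.57 and 2.04 in mESCs, with a log2 fold change of mESCs over hESCs of -0.41 (SE 0.12, edgeR adjusted p = 0.0175). This call was lost without hESC passage 2 or 3 and without mESC passage 1 or 2, and the value ranged from -0.53 to -0.31 when a passage was left out. The other had 1.96 ± 0.08 in hESCs and 1.82 ± 0.31 in mESCs (SD, n = 3), with a log2 fold change of 0.00 (SE 0.13, adjusted p = 0.999).

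Strings like those SOX factors bind, CCATTGT or AACAAAG on either strand, which can overlap, were held by 4.11% of the human and 4.68% of the mouse sequences measured and by 2.93% of the random sequences. The median log2 ratio of activity in mESCs over hESCs was -0.17 for the 245 human sequences with a match and -0.11 for the 5719 without, and -0.12 and -0.09 for the 276 and 5621 mouse sequences. The median GC content was 52.1% with and 59.0% without a match in human sequences, and its part in the ratio was not tested. For the 47 random sequences with a match, the median was -0.01, against 0.01 for the 1557 without. These medians carry no test.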
